A study of Homo sapiens with 16 samples.

Results

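The amino acid response and the tRNA synthetases were followed in U937 cells after induction of AML1-ETO. The rule lists genes by name and uses no measured value, although the list was drawn up with earlier results of these data known. It holds 46 genes in 5 roles, with 8 transcription factors and regulators, 5 amino acid transporters, 10 enzymes of amino acid synthesis, 4 folate enzymes and 19 cytosolic aminoacyl-tRNA synthetases. Of these, 37 had a probe set annotated with that symbol alone, among 8225 such genes on the array, and 34 were tested. ATF3, PYCR1 and HARS1 were too dim for the test. SHMT1 and MARS1 stood only on probe sets that also carry the name of a microRNA, and TRIB3, SESN2, PSAT1, ALDH18A1, FARSB, LARS1 and QARS1 had no probe set named here.

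When an amino acid is scarce, uncharged tRNA activates the kinase GCN2, which phosphorylates the translation factor eIF2. Translation then slows in general, while that of the transcription factor ATF4 is favoured. ATF4, with partners of the C/EBP family, raises genes that import and make amino acids, supply folate-bound carbon units and charge tRNAs with their amino acids. The endoplasmic reticulum kinase PERK and other eIF2 kinases feed into the same step, so the branch is also called the integrated stress response. Fast-growing leukaemia cells use the same transporters and enzymes to supply protein and nucleotide synthesis.

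U937 is a human monocytic leukaemia line. All 16 samples came from U937 cells that carry AML1-ETO, the fusion protein of t(8;21) leukaemia, under a tetracycline-controlled promoter, so the control cells carry the construct too. The groups were induced cells at 12, 24, 48 and 72 h and control cells at 0, 24, 48 and 72 h, with 2 samples each, and total RNA was hybridised to Affymetrix U95Av2 arrays. The sources used here do not say whether the cells are a single clone, and controls at 12 h were not analysed here. No label says that the 2 samples of a group came from separate cultures, so a p-value here is set by the spread of the arrays, which can be technical alone.

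Values are linear intensities that the authors had scaled to a common mean of 1370.9 per array. An intensity can lie below 0 when the signal of mismatch probes is subtracted from that of matching ones, and the labels do not say whether this was done. For the tests, values under 135.61, the 40th percentile of all values, were set to that floor and log2 was taken. A probe set was tested where at least 2 arrays exceeded 292.74, the median of all values, which left 7824 probe sets. A single linear model (limma) with a mean for each group gave every difference with its standard error (SE), and a probe set was called at a Benjamini-Hochberg adjusted p under 0.05 over all 7824. "Fell" and "rose" are used for called differences, and a fold is that of the fitted log2 means. Where a gene had several probe sets, the one of highest mean over the 16 arrays stands for it. The average effect is the mean of the induced minus control differences at 24, 48 and 72 h.

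The 2 arrays of a group correlated at 0.912 to 0.955 across probe sets. RUNX1T1, the ETO part of the fusion, had 4 probe sets. Only the brightest was tested, and the others, all dim, showed no comparable rise. By the brightest it read 8650 and 3974 in induced cells at 48 h and 10603 and 8355 at 72 h, against at most 91.4 in all 8 control arrays. At 24 h the 2 induced arrays read 1592 and -47.5, and at 12 h both were under the floor. Of 9 measured myeloid and monocytic markers, LYZ, CD4 and PTPRC were over the floor on all 16 arrays. ANPEP, ITGAM, CSF1R and MPO exceeded the median of all values on at most 2 arrays. The summed level of the 9 markers was 17019 to 22495 in induced cells at 24 to 72 h, against 13192 to 20627 in control cells. Single markers moved in opposite directions within that sum. SPI1 (PU.1), a myeloid transcription factor, read 341 and -158 in induced cells at 48 h and 231 and 243 at 72 h, against 2602 and 2608 in control cells at 48 h and 2496 and 2596 at 72 h. CD4 read 10132 and 8229 in induced cells at 72 h, against 4072 and 4038 in control cells. PTPRC (CD45), the common leukocyte antigen, read 10272 and 9128 against 5139.8 and 5549 there. These groups did not overlap, with SPI1 lower and CD4 and PTPRC higher in induced cells. Summed levels were 955.3 to 2205 against 430.3 to 2320.0 for 4 lymphoid markers and 3988 to 7693 against 4913 to 6722 for 4 epithelial and fibroblast markers. For 2 erythroid markers they were -151.4 to 352.8 against 85.8 to 880.5. The part of these markers in the results was not tested. In these bulk samples, fewer cells of a type and less RNA per cell cannot be told apart.

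Nearly the whole measured response stood lower in induced cells. In the average effect 30 of 34 genes fell and 0 rose, where 13.4% of all tested probe sets were called lower and 18.5% higher (31.9% together). Rises made up 58.1% of all calls, and 44.8% after median centring of the arrays. The median log2 difference was -0.90 over the 34 genes and 0.10 over all tested probe sets. All 5 regulators, all 5 transporters, 4 of 7 synthesis enzymes, all 3 folate enzymes and 13 of 14 synthetases were called. DDIT3 is counted here and below, although it entered the test through control arrays alone. The genes without a call were CBS, PSPH, GOT1 and SARS1. In 10 of the 34 genes all 6 induced arrays lay below all 6 control arrays, as in 1.62% of all tested probe sets.

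By time, 0 genes were called at 24 h, 23 fell at 48 h and 30 fell at 72 h. The shares of all probe sets called lower at these times were 0%, 8.68% and 13.9%. Of the genes, 22 fell at both 48 and 72 h. The other 8 that fell at 72 h were ATF4, ATF5, DDIT3, CBS, GOT1, SHMT2, MTHFD2 and RARS1. FARSA fell at 48 h alone by its brightest probe set, and NUPR1, PSPH and SARS1 were called at neither time. The count at 48 h was 15 without replicate 1 of the 48 h control cells.

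**Figure D1:**
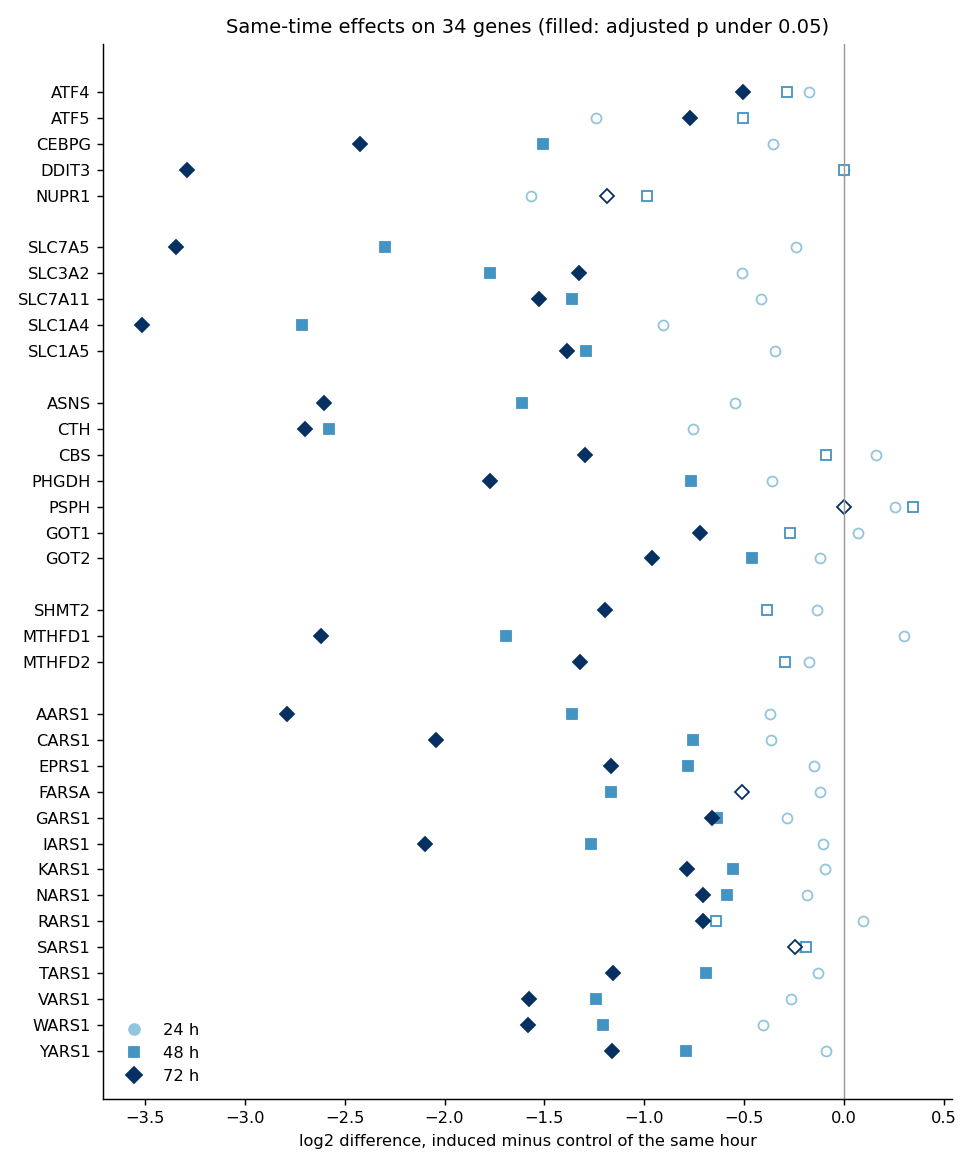
Log2 difference of induced minus control cells (horizontal axis, log2 units) for 34 genes of the amino acid response in 5 roles, at 24, 48 and 72 h, from the fit of 2 against 2 arrays. Filled points had an adjusted p under 0.05. The medians are -0.20, -0.77 and -1.31, and the most negative points are SLC1A4 and SLC7A5 at 72 h.

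Promoter sequence is shown for 5 of the called genes because ATF4 and its C/EBP partners are known to bind a composite element of the letters TGATGNAA. Each window is the 250 bases before the transcript start from RefSeq (GRCh38.p14), 5′ to 3′ on the gene's strand. Capitals mark the match, read on either strand. They are ASNS at chr7:97872409-97872658 (minus strand), AARS1 at chr16:70289507-70289756 (minus), IARS1 at chr9:92293698-92293947 (minus) and CEBPG at chr19:33373863-33374112 (plus). In the fifth, SLC7A5 at chr16:87869508-87869757 (minus), capitals mark the E-box CACGTG, the letters bound by MYC and related factors, since it holds no TGATGNAA. The IARS1 window also holds CACGTG, left in lower case.
ASNS: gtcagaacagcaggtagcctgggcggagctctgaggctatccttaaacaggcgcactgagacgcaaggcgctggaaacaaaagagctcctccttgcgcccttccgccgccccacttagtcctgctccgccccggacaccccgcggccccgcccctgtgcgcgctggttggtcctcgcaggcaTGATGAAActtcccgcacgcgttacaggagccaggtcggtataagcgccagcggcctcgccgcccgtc
AARS1: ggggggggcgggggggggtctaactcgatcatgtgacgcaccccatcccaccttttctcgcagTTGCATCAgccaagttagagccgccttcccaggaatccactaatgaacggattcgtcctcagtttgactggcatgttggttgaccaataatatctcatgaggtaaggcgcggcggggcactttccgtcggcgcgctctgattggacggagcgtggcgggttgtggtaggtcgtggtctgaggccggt
IARS1: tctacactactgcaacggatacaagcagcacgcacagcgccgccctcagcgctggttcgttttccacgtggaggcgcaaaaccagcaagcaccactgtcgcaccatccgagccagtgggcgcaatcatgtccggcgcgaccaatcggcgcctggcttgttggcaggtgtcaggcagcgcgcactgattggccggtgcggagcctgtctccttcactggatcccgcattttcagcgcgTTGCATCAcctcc
CEBPG: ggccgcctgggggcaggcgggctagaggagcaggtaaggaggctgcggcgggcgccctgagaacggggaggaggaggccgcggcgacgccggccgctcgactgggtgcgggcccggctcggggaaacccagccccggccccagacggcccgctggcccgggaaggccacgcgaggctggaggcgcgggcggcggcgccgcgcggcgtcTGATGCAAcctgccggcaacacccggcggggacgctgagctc
SLC7A5: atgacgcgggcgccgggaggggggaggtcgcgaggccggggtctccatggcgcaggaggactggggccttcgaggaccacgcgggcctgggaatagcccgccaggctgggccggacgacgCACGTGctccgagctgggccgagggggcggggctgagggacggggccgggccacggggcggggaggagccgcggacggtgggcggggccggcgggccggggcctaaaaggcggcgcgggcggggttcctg

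Counted from the transcript start, the matches begin at -68 in ASNS (TGATGAAA), -187 in AARS1 (TTGCATCA), -13 in IARS1 (TTGCATCA), -42 in CEBPG (TGATGCAA) and -130 in SLC7A5 (CACGTG). Of the 46 genes, 38 had a window. TGATGNAA stood in 8 of the 38 genes (21.1%), against 3.89% of 27305 genes in the table. The others were ATF3, GARS1, GOT1 and SLC1A5. CACGTG, which shares no letters with a TGATGNAA match in the windows shown, stood in 6 of 38 genes (15.8%) against 7.73%, namely ALDH18A1, ATF4, IARS1, MTHFD1, SLC1A5 and SLC7A5. By single windows, TGATGNAA stood in 13.6% of 59 windows of these genes and in 3.14% of all 35116. A match describes the letters and shows no binding.

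Among the regulators, CEBPG, a C/EBP family member that pairs with ATF4, fell at 48 and 72 h. It read 1072 and 1092 in induced cells at 24 h, 501 and 334 at 48 h and 344 and 155 at 72 h, against 1455 and 1316 at 24 h, 1088 and 1240.1 at 48 h and 1117 and 1375 at 72 h in control cells. Induced arrays lay below the control arrays of the same time at each of the 3 times. The fall was 2.84-fold at 48 h (log2 -1.51, SE 0.39, adjusted p = 0.0147) and 5.37-fold at 72 h (log2 -2.43, SE 0.39, adjusted p = 0.00035).

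ATF4 itself, whose product is controlled largely through translation, had the smallest fold of the 5 regulators in the average effect. Its RNA read 9569 and 9273 in induced cells at 72 h, against 13087 and 13692 in control cells, and the groups did not overlap. ATF4 fell 1.42-fold at 72 h (adjusted p = 0.031) and 1.25-fold in the average effect (log2 -0.32, SE 0.09, adjusted p = 0.0179). The call in the average effect was lost without replicate 2 of the induced cells at 24 h (adjusted p = 0.053) and without replicate 1 of the control cells at 24 h (0.0511) or 48 h (0.0556). That at 72 h was lost when all probe sets were tested.

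ATF5 is a close relative of ATF4 whose product is likewise controlled through translation. At 24 h its adjusted p equalled the smallest of all probe sets. It read 5426 and 4236 in induced cells at 24 h, against 10194 and 12620.1 in control cells. At 48 h it read 8561 and 10945 against 12796 and 14723, and at 72 h 9189 and 7662 against 12501 and 16341. The induced arrays were lower than the controls of their time throughout, with the widest gap at 24 h (log2 -1.24, SE 0.19). That difference was not called (adjusted p = 0.0515). ATF5 fell 1.70-fold at 72 h (adjusted p = 0.00809) and 1.79-fold in the average effect (adjusted p = 7.36e-05). The F test of unequal effects over the 3 times gave ATF5 an adjusted p of 0.215.

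NUPR1, a small stress-induced nuclear protein, read 966 and 723 at 24 h, 1164 and 286.7 at 48 h and 1197 and 695 at 72 h in induced cells, against 2208 and 2779 at 24 h, 1099.7 and 1191 at 48 h and 2473 and 1737 at 72 h in control cells. It was called in the average effect (log2 -1.25, SE 0.36, adjusted p = 0.0159) and at no single time. The call was lost without replicate 2 of the induced cells at 72 h (adjusted p = 0.054), when all probe sets were tested (0.0724) and against control cells at 0 h (1.00).

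DDIT3 (CHOP), the pro-apoptotic factor downstream of ATF4, was over the floor on 4 arrays only, none of them induced. These were the control arrays at 0 h, 967 and 565, and at 72 h, 1627 and 1078. All other arrays, induced and control, read below 0, and the induced arrays at 72 h read -733 and -245. DDIT3 was therefore at least 9.77-fold lower in induced cells at 72 h, while at 24 and 48 h neither group gave a level. It entered the test through those 4 control arrays alone, so its calls are no support for a fall and its values are a description. A second DDIT3 probe set was over the floor only on the control arrays at 72 h, at 643 and 952, against -1295 and -855 in induced cells. It entered the test through those 2 arrays alone, so its values are given as a description. The call of DDIT3 in the average effect rests on the 72 h arrays, and its fitted size is no bound.

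ATF3, a stress-induced repressor of the same family, went the other way. It read 504 and 291 in induced cells at 72 h, against -119 and 45.6 in control cells, and was too dim for the test. Fitted with all 12559 probe sets, it rose at 72 h (log2 1.5, SE 0.28, adjusted p = 0.00588) and in the average effect (log2 0.66, SE 0.16, adjusted p = 0.0209). Both control arrays at 72 h lay at the floor, so the rise there is a lower bound on that scale. PYCR1, the last enzyme of proline synthesis, and HARS1, the histidyl-tRNA synthetase, had average log2 differences of -0.33 (adjusted p = 0.424) and 0.01 (adjusted p = 1.00) in that fit.

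**Figure D2:**
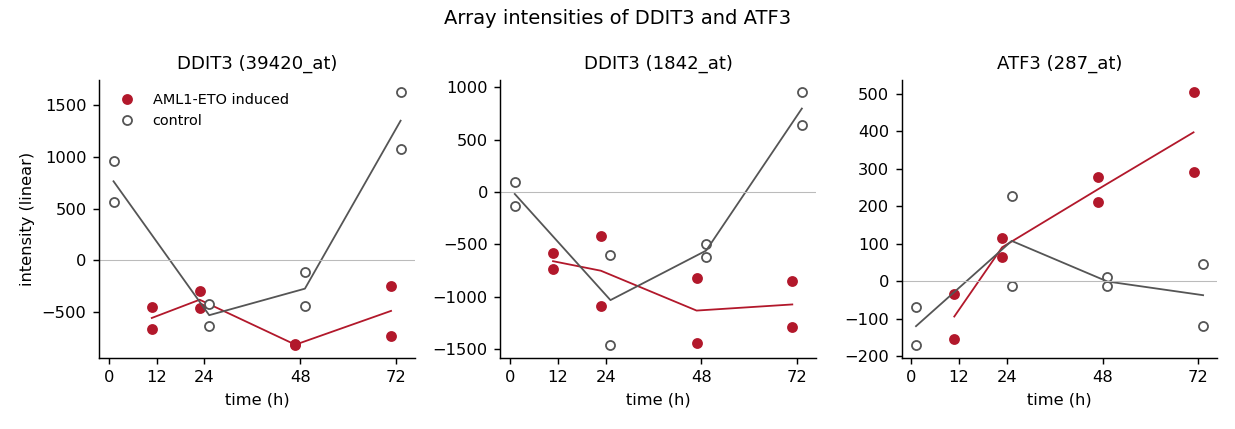
Array intensity (vertical axis, linear, values below 0 included) of DDIT3 by both of its probe sets and of ATF3, against time in hours, with induced arrays filled and control arrays open, 2 per group. Lines join group means, and the thin grey horizontal line marks 0. DDIT3 is over the floor only in control cells at 0 and 72 h, and ATF3 is highest in the induced cells at 72 h, at 504 and 291.

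All 5 transporters fell at 48 and at 72 h. SLC7A5 (LAT1), the light chain that carries leucine and other large neutral amino acids, read 18691 and 20564 in induced cells at 24 h, 4008 and 5746 at 48 h and 2293 and 1549 at 72 h. Control cells read 24092 and 22261 at 24 h, 23258 and 24035 at 48 h and 18905 and 19425 at 72 h. The control arrays kept to a narrow range while the induced arrays were lower at each later time. SLC7A5 fell 4.93-fold at 48 h (log2 -2.30, SE 0.19, adjusted p = 8.23e-06) and 10.2-fold at 72 h (log2 -3.35, SE 0.19, adjusted p = 1.71e-07).

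SLC3A2 (CD98), the heavy chain that brings SLC7A5 and SLC7A11 to the cell surface, read 3784 and 3805 in induced cells at 48 h and 3829.9 and 4416 at 72 h, against 12982 and 12925 in control cells at 48 h and 10533 and 10105 at 72 h. It fell 3.41-fold and 2.51-fold (adjusted p = 1.4e-05 and 4.06e-05), the smaller fold coming at the later time. SLC7A11 (xCT), the cystine importer, read 541 and 241 in induced cells at 48 h and 353 and 542 at 72 h, against 1142 and 755 in control cells at 48 h and 1317 and 1205 at 72 h, and fell 2.88-fold at 72 h (adjusted p = 0.0152). Its call at 48 h (adjusted p = 0.0401) was lost with the median of all values as the floor and when all probe sets were tested. Against control cells at 0 h its average was not called (adjusted p = 0.0812).

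SLC1A4 (ASCT1), a carrier of alanine, serine and cysteine, had the largest fold at 72 h among genes with no array at the floor. It read 2792 and 4089 in induced cells at 24 h, 607 and 1114 at 48 h and 495 and 528 at 72 h, against 6060.0 and 6609 at 24 h, 5867 and 4958 at 48 h and 5811 and 5881 at 72 h in control cells. All 6 induced arrays lay below all 6 control arrays. The falls were 6.56-fold at 48 h (adjusted p = 1.65e-05) and 11.4-fold at 72 h (log2 -3.52, SE 0.25, adjusted p = 6.28e-07). Its second probe set fell 3.24-fold and 3.89-fold. SLC1A5 (ASCT2), the glutamine carrier, read 5749.9 and 5637 in induced cells at 48 h and 5076 and 4879 at 72 h, against 13874 and 13992 in control cells at 48 h and 13200.1 and 12809 at 72 h. Its falls were 2.45-fold and 2.61-fold (adjusted p = 2.17e-05 and 3.59e-06), again with no overlap of the 6 induced and 6 control arrays.

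Of the enzymes of amino acid synthesis, ASNS, CTH and PHGDH fell furthest at 72 h. ASNS, asparagine synthetase, read 2750.4 and 1934 at 24 h, 1240.3 and 1779.5 at 48 h and 962 and 926 at 72 h in induced cells, against 2790.2 and 4063 at 24 h, 4680.0 and 4405 at 48 h and 5221 and 6289.5 at 72 h in control cells. It fell 3.06-fold at 48 h (adjusted p = 0.0006) and 6.07-fold at 72 h (log2 -2.60, SE 0.25, adjusted p = 5.92e-06). PHGDH, which catalyses the first step from glycolysis to serine, read 9164 and 10178 in induced cells at 48 h and 4963 and 5521 at 72 h, against 16108 and 16684 in control cells at 48 h and 19357 and 16491 at 72 h. It fell 1.70-fold and 3.41-fold (adjusted p = 0.0035 and 2.51e-06). Both enzymes had every induced array at 24 to 72 h below every control array of those times.

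CTH, which releases cysteine from cystathionine, read 97 and 168 in induced cells at 48 h and 156 and 122 at 72 h, against 931 and 877 in control cells at 48 h and 975 and 911 at 72 h. Induced arrays had reached the floor, so CTH was at least 5.98-fold lower at 48 h (adjusted p = 0.000387) and at least 6.49-fold lower at 72 h (adjusted p = 0.000124). CBS, which makes the cystathionine, read 227 and 234 in induced cells at 72 h, against 574 and 557 in control cells. It fell 2.45-fold at 72 h (adjusted p = 0.0182) and was not called at 48 h (log2 -0.09, SE 0.37) or in the average effect (adjusted p = 0.175).

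The transaminases GOT1 and GOT2 link aspartate and glutamate, GOT1 in the cytosol and GOT2 in mitochondria. GOT2 fell 1.38-fold at 48 h and 1.95-fold at 72 h (adjusted p = 0.0128 and 3.63e-05), and read 7051 and 6892 in induced cells at 72 h, against 14650.4 and 12597 in control cells. GOT1 fell 1.65-fold at 72 h (adjusted p = 0.0157) and was not called in the average effect (log2 -0.31, SE 0.12, adjusted p = 0.0604). That average was called after quantile normalization (adjusted p = 0.0101) and after median centring (0.00655). PSPH, the phosphatase that completes serine synthesis, read 1849 and 2114 in induced cells at 48 h and 1774 and 1707 at 72 h, against 1386 and 1742 in control cells at 48 h and 1654 and 1828 at 72 h. It was not called at any time, and its average log2 difference was 0.20 (SE 0.15, adjusted p = 0.35). Its probe sets may also bind near-identical copies of the gene, so the value is uncertain.

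The folate enzymes move carbon units from serine to purines, thymidylate and methionine. MTHFD1, the cytosolic trifunctional enzyme, read 3704 and 3325 in induced cells at 24 h, 872 and 1094 at 48 h and 561 and 314 at 72 h, against 2427 and 3337 at 24 h, 2781 and 3586 at 48 h and 2037 and 3249 at 72 h in control cells. The groups overlapped at 24 h and lay apart at 48 and 72 h. MTHFD1 fell 3.23-fold at 48 h (adjusted p = 0.00159) and 6.13-fold at 72 h (log2 -2.62, SE 0.30, adjusted p = 2.7e-05). Its other probe set fell 3.34-fold and 3.77-fold.

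The mitochondrial folate enzymes were called at 72 h and not at 48 h. MTHFD2 read 9636 and 11953 in induced cells at 48 h and 5683 and 5425 at 72 h, against 13002 and 13342 in control cells at 48 h and 12864 and 14979 at 72 h, and fell 2.50-fold at 72 h (adjusted p = 3.29e-05). SHMT2, which splits serine into glycine and a carbon unit in mitochondria, read 3683 and 3545 in induced cells at 72 h, against 8126 and 8436 in control cells. It fell 2.29-fold (adjusted p = 0.000641). The adjusted p at 48 h was 0.226 for MTHFD2 and 0.236 for SHMT2.

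The cytosolic synthetases attach each amino acid to its tRNA. The 14 measured ones had a median log2 difference of -0.77 at 48 h and -1.16 at 72 h, and 12 fell at each of these times. AARS1, the alanyl-tRNA synthetase, read 6122 and 6289.8 in induced cells at 24 h, 2936 and 3852 at 48 h and 1331 and 1658 at 72 h, against 7196 and 8925 at 24 h, 9177 and 8130.2 at 48 h and 10277 and 10248 at 72 h in control cells. It was the synthetase of largest fold at 72 h, 6.91 (log2 -2.79, SE 0.17, adjusted p = 2.1e-07), after 2.57 at 48 h (adjusted p = 0.000119).

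IARS1, for isoleucine, read 3182 and 3387 in induced cells at 48 h and 2153 and 2338 at 72 h, against 7529 and 8304 in control cells at 48 h and 8953 and 10289.8 at 72 h. It fell 2.41-fold and 4.28-fold (adjusted p = 0.000351 and 2.78e-06). CARS1, for cysteine, read 2802 and 3987 in induced cells at 48 h and 1159 and 1969 at 72 h, against 5977 and 5338 in control cells at 48 h and 6041 and 6391 at 72 h, and fell 1.69-fold and 4.11-fold. Its call at 48 h (adjusted p = 0.0415) was lost after quantile normalization and when all probe sets were tested, as was that of GARS1. WARS1, for tryptophan, is also known as an interferon-induced gene. It read 834 and 1077 in induced cells at 72 h, against 2697 and 2981 in control cells, and fell 2.99-fold (adjusted p = 0.000429). VARS1, for valine, read 2896 and 3231 against 9472 and 8765 and fell 2.98-fold (adjusted p = 1.82e-06).

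At 72 h EPRS1 (glutamate and proline), TARS1 (threonine) and YARS1 (tyrosine) fell 2.24-, 2.23- and 2.24-fold. KARS1 (lysine), NARS1 (asparagine), RARS1 (arginine) and GARS1 (glycine) fell 1.73-, 1.63-, 1.63- and 1.58-fold. The average call of RARS1 (adjusted p = 0.0202) was lost without replicate 2 of the induced cells at 24 h (0.0586) or 72 h (0.0563), or replicate 1 at 48 h (0.0548). It was also lost without replicate 2 of the control cells at 24 h (0.0533), 48 h (0.0565) or 72 h (0.0614). FARSA, the catalytic subunit for phenylalanine, fell 2.24-fold at 48 h (adjusted p = 0.00224) and missed the call at 72 h (adjusted p = 0.0972). Its other 2 probe sets were called at 72 h (1.88- and 1.49-fold). SARS1, for serine, read 3862 and 3253 in induced cells at 72 h, against 4037 and 4362 in control cells, and was not called at any of the 3 times. Its average log2 difference was -0.22 (SE 0.09, adjusted p = 0.0971), and it was called after median centring (0.0265).

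**Figure D3:**
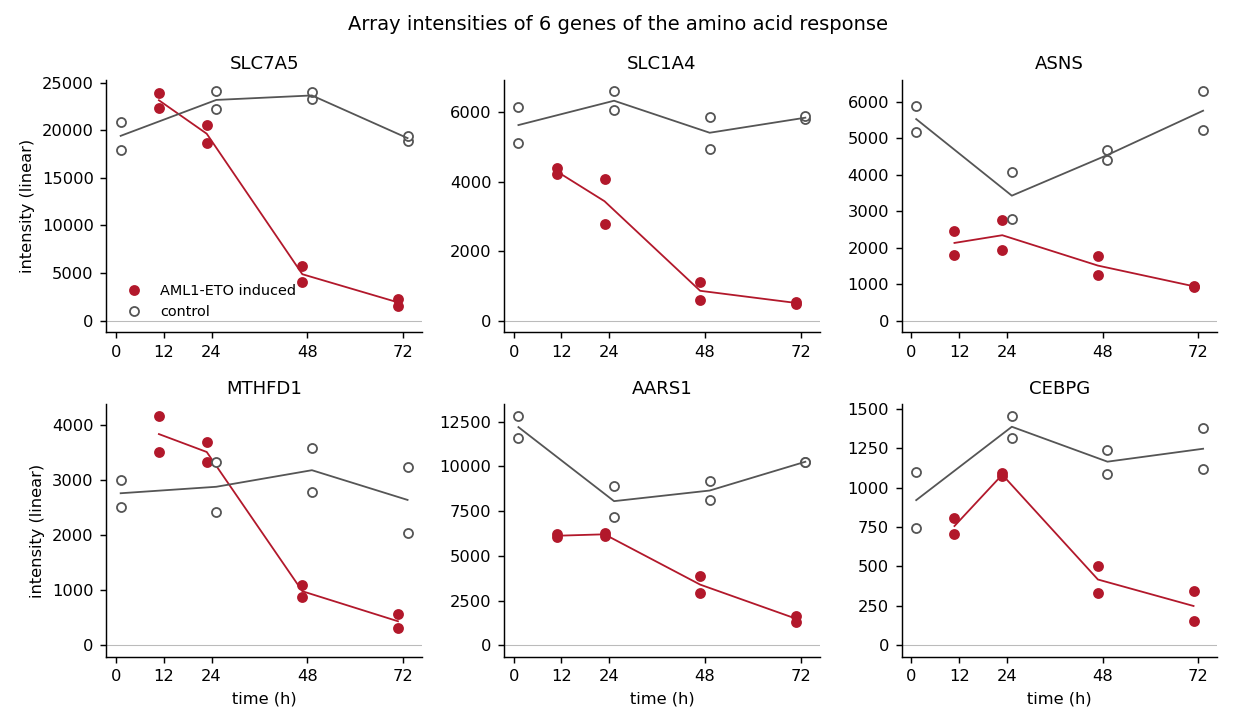
Array intensity (vertical axes, linear, each panel with its own scale) of SLC7A5, SLC1A4, ASNS, MTHFD1, AARS1 and CEBPG against time in hours, with induced arrays filled and control arrays open, 2 per group, and lines through group means. At 72 h the induced arrays lie below the control arrays in all 6 panels, with SLC7A5 at 2293 and 1549 in induced cells against 18905 and 19425 in control cells.

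At 24 h no probe set of the whole array was called. With limma, 8 of the 34 genes and 397 of the 7824 probe sets had an unadjusted p under 0.05. Of the 34 genes, 28 had a log2 difference below 0, as had 43.5% of all tested probe sets. In 21 both induced arrays lay below both control arrays, against 13.7% of all tested. The median log2 difference was -0.20 over the 34 genes and 0.04 over all tested. The most negative was NUPR1 (log2 -1.57, SE 0.62, adjusted p = 0.928), followed by ATF5 and then SLC1A4 (log2 -0.91, SE 0.25, adjusted p = 0.691). At 48 h the 2 groups lay apart, induced below control, in 31 genes (26.2% of all tested) and at 72 h in 33 (26.7%). Both counts include DDIT3, which supports neither. Its readings at 48 h all lay below 0, and its control arrays at 72 h were among those that brought it into the test.

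The difference between induced and control cells was larger at the later times for many of these genes. An F test of unequal effects at 24, 48 and 72 h called 18 of 34 genes, where 10.9% of all probe sets were called, and in all 18 the log2 difference was more negative at 72 h than at 24 h. Between 24 and 48 h the difference fell in 8 genes (4.88% of all probe sets changed in either direction), namely SLC7A5, SLC3A2, SLC1A4, SLC1A5, MTHFD1, AARS1, IARS1 and VARS1. These include 4 of the 5 transporters. Between 24 and 72 h it fell in 22 genes (14.5%). From 48 to 72 h it fell in AARS1 (log2 -1.43, SE 0.24, adjusted p = 0.0217) and DDIT3 (adjusted p = 0.0185), against 0.486% of all probe sets. The step for DDIT3 rests on the control arrays, which were under the floor at 48 h and over it at 72 h. Those at 72 h were among the arrays that brought it into the test, so its calls here are no support for a change.

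**Figure D4:**
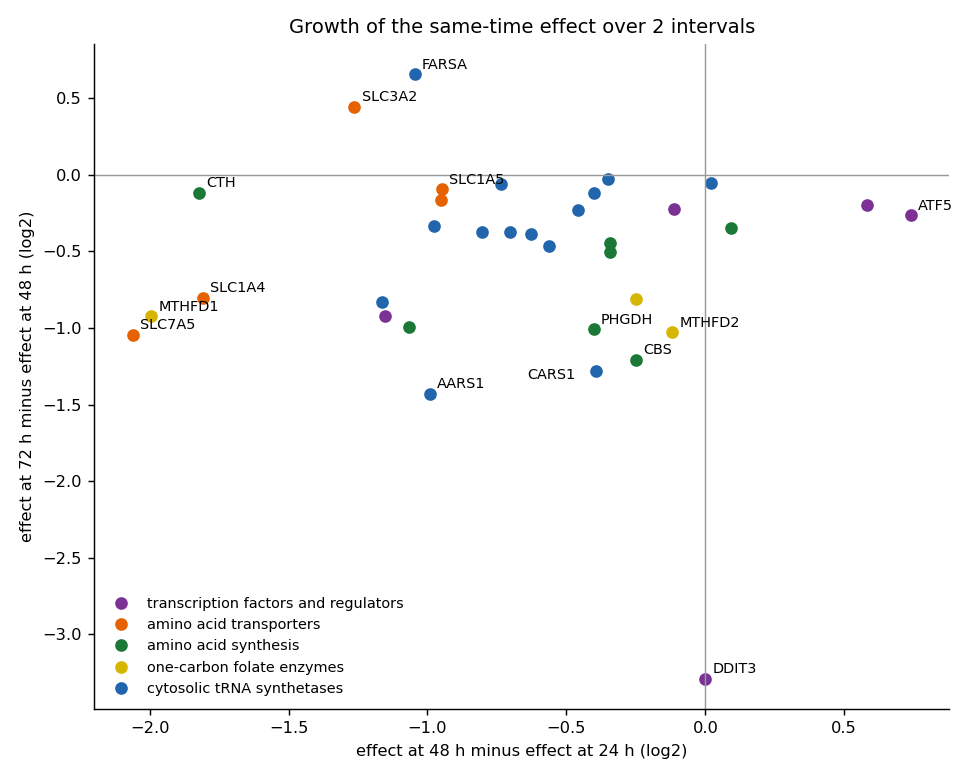
Change in the log2 difference (induced minus control) from 24 to 48 h (horizontal axis) against the change from 48 to 72 h (vertical axis), both in log2 units, for 34 genes. SLC7A5, MTHFD1, CTH and SLC1A4 lie furthest to the left, CTH with an induced array at the floor at 48 h. AARS1 and DDIT3 lie lowest, at -1.43 and -3.29 on the vertical axis.

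Each induced time was also set against the control cells at 0 h. These comparisons share the same 2 control arrays, and hours in culture and induction cannot be told apart in them. At 12 h, 10 of the 34 genes fell and 1 rose, where 2.12% and 1.16% of all probe sets were called in those directions (3.28% together). Rises were 35.4% of all calls at 12 h and 73.4% after median centring. The median of all probe sets was log2 -0.15 at 12 h, and that of the 34 genes -0.56. The genes that fell were ATF4, ATF5, DDIT3, ASNS, PHGDH, MTHFD2, AARS1, CARS1, IARS1 and SARS1, and none was a transporter. RUNX1T1 was under the floor on both 12 h arrays.

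ATF5 read 4072 and 4558 in induced cells at 12 h, against 14134 and 16306 in control cells at 0 h, and was 3.52-fold lower (log2 -1.82, SE 0.19, adjusted p = 0.000806). ASNS read 2457 and 1805 against 5872 and 5178 and was 2.62-fold lower (adjusted p = 0.0108). MTHFD2 read 8069.5 and 6859 against 15250.2 and 14369.9, 1.99-fold lower (adjusted p = 0.0053). In each of these genes both 12 h arrays lay below both 0 h arrays. DDIT3 was at least 5.45-fold lower, but both 0 h arrays were among those that brought it into the test, so its call is no support for a fall. Control cells at 24 and 48 h had the same log2 difference from 0 h, -2.45, as induced cells at 12 h. CARS1, AARS1 and IARS1 were 2.36-, 1.99- and 1.70-fold lower. ATF5 and MTHFD2 were also called after quantile normalization, after median centring and without the filter. The calls of ASNS and AARS1 were lost without replicate 1 of the 0 h control cells, and that of ASNS also without replicate 2 of the induced cells. The calls of ATF4, PHGDH, CARS1, IARS1 and SARS1 were lost after median centring, without either 0 h control array and without replicate 2 of the induced cells. Those of PHGDH and IARS1 were lost without replicate 1 of the induced cells too, and those of ATF4, PHGDH, CARS1 and IARS1 when all probe sets were tested.

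VARS1 went the other way at 12 h. It read 12221 and 14552 in induced cells, against 7999 and 7643 in control cells at 0 h, and rose 1.71-fold (adjusted p = 0.00804). That call was lost without replicate 2 of the 0 h control cells. A second FARSA probe set rose 2.30-fold (adjusted p = 0.0371), while the brightest one was not called (adjusted p = 0.073). The transporter SLC7A5 read 22349.5 and 23931 against 20910.4 and 17898 and was not called (log2 0.26, SE 0.19). The count of 11 at 12 h depended on single arrays: it was 4 without replicate 1 of the 0 h control cells, 5 without their replicate 2 and 5 without replicate 2 of the induced cells at 12 h. After median centring 5 genes fell (ATF5, DDIT3, ASNS, MTHFD2 and AARS1) and 3 rose (VARS1, FARSA and RARS1).

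Against 0 h, 4 genes were lower in induced cells at 24 h (ATF5, DDIT3, ASNS and AARS1, where 0.498% of all probe sets were called lower), 24 at 48 h (8.29%) and 30 at 72 h (14.1%). The 24 h count was 1 without replicate 1 of the 0 h control cells and 1 without either induced array at 24 h, and 2 without replicate 2 of the 0 h control cells. Few of the genes were called between the later control cells and those at 0 h. DDIT3 was called lower in control cells at 24 h (0.332% of all probe sets were called lower and 0.498% in either direction). Its 0 h arrays were among those that brought it into the test. This call, and its place in the counts for induced cells against 0 h, are therefore no support for a fall. The second DDIT3 probe set was called higher in control cells at 72 h (limma, log2 2.53, adjusted p = 0.0179). That probe set lay at the floor at 0 h and entered the test through its 72 h control arrays alone. No other gene of the 34 was called in control cells at 24, 48 or 72 h by its brightest probe set with limma, where 0.0128% and 0.0383% of all probe sets were called at 48 and 72 h. At an unadjusted p under 0.05 there were 11, 5 and 2 of 34 at 24, 48 and 72 h. Over all 7824 tested probe sets the counts at these times were 1045, 700 and 581. The call of DDIT3 at 24 h was lost without replicate 1 of the 0 h or of the 24 h control cells, and 1 gene was called at 48 h without replicate 2 of the 0 h cells. ASNS read 5872 and 5178 in control cells at 0 h, 2790.2 and 4063 at 24 h, 4680.0 and 4405 at 48 h and 5221 and 6289.5 at 72 h.

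**Figure D5:**
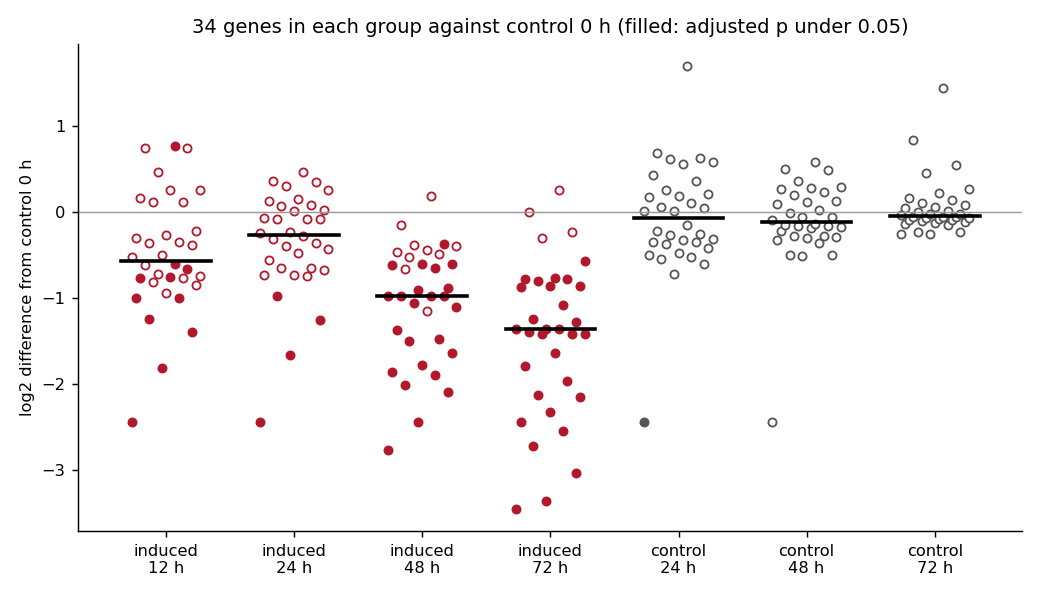
Log2 difference from control cells at 0 h (vertical axis, log2 units) for 34 genes in induced cells at 12, 24, 48 and 72 h and in control cells at 24, 48 and 72 h, with bars at the medians and filled points for an adjusted p under 0.05. The called genes number 11, 4, 24 and 30 in the induced groups and 1, 0 and 0 in the control groups.

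Neighbouring lists were described by the same average effect. Of 10 tested genes for eIF2, its kinases, its exchange factor eIF2B and its phosphatase, 2 fell and 1 rose, with a median of -0.24. PPP1R15A (GADD34), which directs the phosphatase to eIF2 and is itself a known ATF4 target, read 3679 and 5313 in induced cells at 72 h, against 1608 and 612 in control cells. Over the 3 times it rose 3.73-fold (adjusted p = 0.00314), while its control arrays at 0 h read 2257 and 370. EIF2S1 and EIF2S3, the alpha and gamma subunits of eIF2, fell 1.59- and 1.37-fold, while a second probe set of each was not called. The brightest EIF2AK2 (PKR) probe set was not called (adjusted p = 0.423), while another rose 1.89-fold (adjusted p = 0.00104).

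Of 7 tested synthetase partners, tRNA export factors and mitochondrial synthetases, XPOT fell and none rose, with a median of 0.08. XPOT, the exporter of tRNA from the nucleus, read 2529 and 1872 in induced cells at 72 h, against 8737 and 9823 in control cells, and fell 2.41-fold (adjusted p = 2.82e-06). Of 11 genes of the unfolded protein response of the endoplasmic reticulum, 4 fell and 1 rose, with a median of -0.18. HERPUD1, a part of the degradation machinery of that organelle, fell 2.21-fold. XBP1, the transcription factor of the IRE1 branch, fell 1.84-fold, and PDIA6, a disulfide isomerase, 1.45-fold. EDEM1, which directs misfolded glycoproteins to degradation, rose 1.95-fold (adjusted p = 0.00978). Its control arrays at 0 h read 4269 and 2084, and no gene of this list was called higher against 0 h at 48 or 72 h.

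Other amino acid transporters and enzymes fell in 5 of 14. The glycine cleavage protein AMT was the 1 called higher. It entered the test through the induced arrays at 72 h alone, 388 and 369, and all control arrays lay under the floor, so its call is no support for a rise. SLC7A1 (CAT1), the carrier of arginine and lysine, read 678 and 855 in induced cells at 48 h and 383 and 124 at 72 h, against 4132 and 4383 in control cells at 48 h and 4149 and 4179 at 72 h, and fell in the average effect by a fitted fold of at least 5.38 (adjusted p = 2.81e-06). ASS1, an enzyme of arginine synthesis, fell 3.19-fold and SLC43A1, a carrier of large neutral amino acids, 2.31-fold. Among 5 other folate and purine genes 4 fell and 0 rose. ATIC, which completes the purine ring, fell 3.14-fold (adjusted p = 2.75e-07), GART, an earlier purine enzyme, 2.22-fold and the folate carrier SLC19A1 2.07-fold. These lists were chosen with earlier results of these data known, and their counts stand beside 13.4% lower and 18.5% higher over all probe sets.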

How the data were processed

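The authors deposited 1 linear intensity value for each probe set of each array, scaled to a common mean. Each array has a scale factor per the labels. The sources used here do not name the software that summarised the probes. Probe sets were named by the platform annotation table, which can be old, and only where it gives 1 symbol. The 67 control probe sets were left out.

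Intensities were floored at 135.61, taken to log2 and fitted by limma (version 3.58.1, R version 4.3.3) with lmFit and a trended eBayes, 1 mean per group, with 8 residual degrees of freedom. All tests are two-sided. The model was tested on simulated data. Precision is limited by the number of arrays, 2 per group. An "at least" fold is a bound: arrays on the lower side lay at the floor and none on the higher side did.

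The genes and lists were chosen with earlier results of these data known. All listed genes may be named. Array values are given for about 4 genes of largest difference per role and wherever a call needs them. Of each neighbouring list, up to 3 called rises and falls are named. Alternatives changed the floor, the filter, the scaling, the reference and the replicate block, and left out each array. Promoter windows came from the RefSeq table.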

Additional observations from a re-analysis of the deposited data

Results flagged for a closer look

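The difference between induced and control cells was unequal over 24, 48 and 72 h for 18 of the 34 genes, by limma's F test with 2 arrays per group. The adjusted p, over all 7824 probe sets, follows each gene. The regulator was DDIT3 (0.00159), whose levels lay under the floor in both groups at 24 and 48 h. Its control arrays at 72 h were among those that brought it into the test, so its call is no support for unequal effects. The transporters were SLC7A5 (0.000115), SLC1A4 (0.00121), SLC1A5 (0.00296) and SLC3A2 (0.00732). The synthesis enzymes were PHGDH (0.00233), ASNS (0.006), GOT2 (0.0114) and CTH (0.0446), and the folate enzymes MTHFD1 (0.0018) and MTHFD2 (0.00663). The synthetases were AARS1 (0.000178), IARS1 (0.000923), VARS1 (0.00124), CARS1 (0.0116), YARS1 (0.0161), KARS1 (0.0349) and TARS1 (0.0485). In all 18 genes the log2 difference was more negative at 72 h than at 24 h. Without single arrays the count of such genes was 14 to 17. The induced arrays also differed in RUNX1T1 over these times, from under the floor on 1 of 2 arrays at 24 h to 10603 and 8355 at 72 h, and its part in these differences was not tested.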

How the results depend on the processing

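The counts of the 34 genes called in the average effect, at 24 h, at 48 h and at 72 h stayed within 1.5 times of 30, 0, 23 and 30 under another floor, the asinh scale, a stricter filter, no filter, quantile normalization, median centring and the replicate block. No called gene changed sign under these. With control cells at 0 h as the only reference, 26 genes were called in the average effect. With no filter on low values, 7 genes were called at 12 h against 0 h (main count 11), 2 in control cells at 24 h (main count 1) and 1 in control cells at 48 h (main count 0). With the median of all values as the floor, 2 were called in control cells at 24 h. Without single arrays the counts were 28 to 31 in the average effect, 0 at 24 h, 15 to 17 at 48 h and 23 to 27 at 72 h. They were 14 to 17 for the F test and 4 to 11 at 12 h against 0 h. For induced cells against 0 h they were 1 to 2 at 24 h, 19 to 21 at 48 h and 26 to 28 at 72 h. For control cells against 0 h they were 0 to 1 at 24 h, 0 to 1 at 48 h and 0 at 72 h. The cause was not tested, beyond fewer samples in these fits. The main fit did not pair samples by replicate number. Differences between replicates 1 and 2 correlated at -0.15 to 0.25 between groups, over 0.1 in 7 of 28 pairs. With the replicate block 30, 0, 23 and 30 genes were called in the average effect and at 24, 48 and 72 h, and 10 at 12 h. Over all probe sets, rises were 58.1% of the calls in the average effect, 50.8% after quantile normalization and 44.8% after median centring. At 48 h these shares were 54.7%, 50% and 43.8%, at 72 h 53.6%, 48.4% and 43.2%, and at 12 h against 0 h 35.4%, 55.8% and 73.4%. With no filter, 4 probe sets of the whole array were called at 24 h (main count 0) and 169 at 12 h against 0 h (main count 257), and quantile normalization gave 140 at 24 h against 0 h (main count 84). CEBPG and FARSA lost the average call against control cells at 0 h (adjusted p = 0.0535 and 0.631). RARS1 lost it too, as did NUPR1 and SLC7A11, given above. Signal near the floor limits DDIT3, CTH and ATF3 to bounds.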
